A study of Mus musculus with 50 samples.

Results

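The B lineage genes of the mouse colon comprised a list of 33 genes, 8 of plasma cells and 25 of B cells or of their survival and antibody transport. The genes were listed by name for their known roles. The rule uses no measured value, but the list was drawn up with earlier results of these data known. Of these, 32 had a named probe set among the 19494 genes tested, all 8 plasma cell genes and 24 of the B cell genes. The remaining gene, Tnfsf13, had no named probe set here and has no value. Where a gene had several probe sets, the set with the highest mean was used.

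Colon tissue of 50 mice, aged 10 to 12 weeks, was measured with 1 Affymetrix array per mouse. The mice fell into 10 groups of 5, by genotype and by the number in the array title, which ran from 1 to 30 in a first set and from 86 to 124 in a second set. What separates the sets is not stated in the labels, and mice are named here by that number. FADD IEC-KO mice lack Fadd, and CASP8 IEC-KO mice lack Casp8, in intestinal epithelial cells only. Both genotypes were in both sets. The first set also held floxed Fadd fl/fl controls, FADD IEC-KO Zbp1 -/- mice, FADD IEC-KO Mlkl -/- mice and CASP8 IEC-KO Mlkl -/- mice. The second set added floxed Casp8 fl/fl controls, as well as FADD IEC-KO RIPK3 IEC-KO mice, in which the epithelium has lost Ripk3 besides Fadd. Zbp1 -/- and Mlkl -/- denote deletions in all cells of the animal, so B lineage cells of those mice carry them too, while the epithelial knockouts leave B cells with their own Fadd, Casp8 and Ripk3. The sources used here do not name the driver of the epithelial deletion. No group was a wild type without a floxed allele, and in each set 1 of the single knockouts was compared with a control floxed at the other gene.

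FADD and caspase-8 carry the signal of death receptors and also hold RIPK3 and MLKL, the executors of necroptosis, in check, and ZBP1 is an activator of RIPK3. B cells are found in the colon mainly in lymphoid patches, where they take up antigen and receive help from T cells. Activated B cells can become plasma cells, which settle in the lamina propria and secrete IgA as dimers joined by the J chain, and the epithelial receptor encoded by Pigr carries these across the epithelium into the lumen. A plasma cell switches off much of the B cell programme, including Pax5, Ms4a1 and Ebf1, so plasma cell genes and B cell genes tend to read different cells of the same lineage. The split is not complete. Pou2af1 and Tnfrsf13b, for example, followed genes of both kinds from mouse to mouse, as given below. Immunoglobulin genes themselves were not named on the array here.

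Promoter sequences from RefSeq (assembly GRCm38.p6, 250 bases before to 50 after a gene's start) were at hand for 27 of the 33 listed genes, in 32 windows. They were searched on both strands for the octamer ATGCAAAT, at which the coactivator encoded by Pou2af1 acts, for the interferon response core (GAAA, any 2 bases, GAAA) and the ETS-IRF composite (GGAA, any 2 bases, GAAA), at which factors of the Irf4 family can bind, and for CCCNNGGG, the core read by Ebf1. The interferon response core was in 4 of the 32 windows and in 3.44% of all 32851 promoter windows. The octamer was in 3 windows (1.74% of all), the ETS-IRF composite in 1 (2.72% of all) and CCCNNGGG in 5 (13.7% of all), those of Bank1, Cd22, Sdc1, Spib and Tnfsf13. Stretches of 30 bases around the octamer and interferon-type matches are shown, a choice made with the results below known. Of the genes with such a match, Tnfrsf17 and Tnfsf13b rose in FADD IEC-KO colon of the first set. Ebf1, Fcrla, Bank1, Blnk, Ccr6 and Vpreb3 did not pass there. Jchain, Prdm1, Irf4, Pou2af1 and Pigr also rose, and their windows held none of the motifs. Whether a match bears on a rise was not tested. Capitals mark the matched letters, each stretch reads 5′ to 3′ along the gene's own strand, and a match describes the letters only.
Tnfrsf17, interferon response core, chr16:11313698-11313727, plus strand, 101 bases before the start: aaataggtggTTTCTGTTTCaggaatagtt
Tnfsf13b, interferon response core, chr8:10006603-10006632, plus strand, 16 bases before its second listed start: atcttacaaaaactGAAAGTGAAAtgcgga
Ebf1, interferon response core, chr11:44617935-44617964, plus strand, 155 bases before the start: ttcgttggatTTTCCCTTTCtttttttttc
Fcrla, interferon response core, chr1:170927756-170927785, minus strand, 192 bases before the start: agctcaacaaGAAAAAGAAAaaaattaaca
Bank1, ETS-IRF composite, chr3:136326113-136326142, minus strand, 66 bases before the start: gcctgagcaaTTTCACTTCCcccagcaagg
Blnk, octamer, chr19:40994332-40994361, minus strand, 130 bases before the start: actggaagggATTTGCATgcccaataaggt
Ccr6, octamer, chr17:8235965-8235994, plus strand, 68 bases before the start: aatgaaaaaaATTTGCATgtcacagtgaaa
Vpreb3, octamer, chr10:75948245-75948274, plus strand, 45 bases before the start: cagtgggctgATTTGCATgctctattgtgg

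The 250 bases before the start of Jchain, the listed gene with the largest difference between FADD IEC-KO and Fadd fl/fl colon in the first set, held none of the 4 motifs and are shown whole.
Jchain, chr5:88527898-88528147, minus strand: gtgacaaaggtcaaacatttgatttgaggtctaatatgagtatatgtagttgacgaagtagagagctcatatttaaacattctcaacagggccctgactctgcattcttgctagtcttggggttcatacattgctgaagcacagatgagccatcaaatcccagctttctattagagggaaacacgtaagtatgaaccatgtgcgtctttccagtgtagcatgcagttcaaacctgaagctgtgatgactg

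Array medians lay between 6.41 and 6.47 on the log2 scale. Fadd was lower in FADD IEC-KO colon than in the floxed control of its set by 0.99 in the first set and 1.16 in the second (log2). Casp8 was lower in CASP8 IEC-KO colon by 1.18 in the first set and 1.52 in the second. The values of the groups did not overlap in any of these comparisons. Mlkl fell by 1.95 and 1.28 in the FADD IEC-KO Mlkl -/- and CASP8 IEC-KO Mlkl -/- mice and Zbp1 fell by 1.80 in FADD IEC-KO Zbp1 -/- mice, and Ripk3 by 1.41 in the FADD IEC-KO RIPK3 IEC-KO group, each against its single knockout. Mlkl was also below Fadd fl/fl in both Mlkl -/- groups, by 1.07 and 0.93 (adjusted p = 0.000409 and 0.0092, limma). For Zbp1 and Ripk3 the check is weaker. Against the floxed mice Zbp1 differed by -0.19 in Zbp1 -/- mice and Ripk3 by 0.09 in FADD IEC-KO RIPK3 IEC-KO colon, both with overlap (adjusted p = 0.852 and 0.944, limma). Ripk3 also fell against FADD IEC-KO by 0.92 in Zbp1 -/- and by 1.16 in Mlkl -/- mice, which keep the gene, so a Ripk3 value below that of FADD IEC-KO mice does not by itself check a label. The samples are colon tissue of mixed cells: the mean of 8 epithelial markers was 11.61 to 12.13 on every array, and smooth muscle markers were read as well. Nothing in the labels says that the 5 mice of a group came from separate litters or cages, so p-values rest on the spread between these mice alone. In the main fit that spread was pooled for each gene over all 10 groups. Intervals can therefore be too narrow where the mice of a group spread widely, as for Mzb1 in the FADD IEC-KO groups. Shares of all genes called, here and below, use an adjusted p under 0.05 (limma). Where genes at p under 0.05 before adjustment are counted, no share of all genes at that threshold is given. Such a count therefore cannot be judged against the share of all genes called.

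Of the 8 plasma cell genes, 6 rose in FADD IEC-KO colon of the first set, while none of the mature B cell genes passed the test. Mzb1, an endoplasmic reticulum protein that helps plasma cells to assemble and secrete antibody, was 4.60-fold higher than in Fadd fl/fl mice, and Jchain, which joins IgA into dimers, was 6.32-fold higher. The regulators Prdm1, Pou2af1 and Irf4 and the survival receptor Tnfrsf17 rose 1.63-fold to 2.56-fold. The survival cytokine Tnfsf13b and the IgA transporter Pigr rose by smaller amounts, 1.24 and 1.12-fold. These 8 genes of 32 rose and none fell at an adjusted p under 0.05 (limma, Benjamini-Hochberg over all genes), beside 8.59% of all genes that rose, 10.1% that fell and 18.7% in all. In bulk tissue, more plasma cells and more RNA per plasma cell cannot be told apart.

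Mzb1 read 4.19, 3.96, 3.84, 4.90 and 4.96 in Fadd fl/fl mice 26 to 30 and 5.53, 7.25, 6.94, 5.68 and 7.46 in FADD IEC-KO mice 21 to 25 (log2 signal). Every knockout mouse was above every floxed mouse, but mice 21 and 24 lay nearer to the controls than mice 22, 23 and 25. The difference was 2.20 ± 0.34 (SE), with a 95% interval of 1.51 to 2.90 and an adjusted p of 6.48e-05 (limma). Jchain read 9.36, 7.14, 7.00, 10.31 and 10.08 in the floxed mice and 10.49, 11.96, 11.97, 10.65 and 12.12 in the knockouts. The knockouts were again all higher, and the floxed mice split widely, with mice 27 and 28 more than 2 log2 units below the other 3. The difference was 2.66 ± 0.51 (SE), with an interval of 1.63 to 3.69 and an adjusted p of 0.000372 (limma). Of the 32 genes, 3 lay wholly above the controls (Mzb1, Jchain and Tnfsf13b) and none wholly below, beside 4.23% of all genes above and 4.97% below.

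Prdm1 encodes Blimp-1, the repressor that ends the B cell programme in plasma cells and that is also made in T cells and in epithelium. It read 4.52, 4.55, 4.75, 4.95 and 4.93 in Fadd fl/fl mice and 4.69, 6.88, 6.60, 5.66 and 6.66 in FADD IEC-KO mice. Mouse 21 sat within the controls and the other 4 above them, and the difference was 1.36 ± 0.37 (SE) with an adjusted p of 0.0077 (limma). Pou2af1, a coactivator at octamer sites in B lineage cells, read 6.12, 6.29, 6.27, 6.97 and 7.08 in the floxed mice and 6.99, 8.16, 7.90, 6.66 and 8.13 in the knockouts. Mice 22, 23 and 25 stood clearly above every floxed mouse and mice 21 and 24 lay among them. Its difference was 1.02 ± 0.25 (SE) (adjusted p = 0.00365, limma).

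Tnfrsf17 encodes BCMA, the receptor through which long-lived plasma cells receive survival signals. It read 5.19, 4.90, 4.81, 5.31 and 5.20 in the floxed mice and 5.81, 5.94, 5.97, 5.08 and 6.15 in the knockouts, of which only mouse 24 fell within the control range. The difference was 0.71 ± 0.18 (SE) (adjusted p = 0.00374, limma). Irf4, a regulator of plasma cell formation that T cells and macrophages also use, read 5.49, 4.63, 5.11, 4.96 and 5.44 in the floxed mice and 5.51, 6.09, 6.05, 4.76 and 6.82 in the knockouts. Mouse 25 was highest and mouse 24 lay below 4 of the 5 controls, and the difference was 0.72 ± 0.22 (SE) (adjusted p = 0.0175, limma). The Irf4 call ended without mouse 22 (0.66, adjusted p = 0.0599), without mouse 25 (0.48, 0.113) or without mouse 27 (0.60, 0.0737).

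The other plasma cell genes had positive differences that did not pass. Sdc1, syndecan-1, which plasma cells carry but which epithelium also makes, differed by 0.21 (95% interval -0.05 to 0.47, adjusted p = 0.281, limma). Ccr10, the receptor that guides IgA plasma cells to the colon, differed by 0.27 (0.00 to 0.54, adjusted p = 0.161, limma). All 8 plasma cell genes were therefore on the positive side, with a median of 0.87, beside -0.02 over all genes tested. Without mice 22 and 23 together, Mzb1 and Jchain were the 2 listed genes that passed, and Prdm1 (0.93, adjusted p = 0.207), Pou2af1 (0.71, 0.146) and Tnfrsf17 (0.60, 0.0876) did not (limma). With only the arrays of these 2 groups in the fit, 5 of the 8 calls were made, and Pou2af1 (adjusted p = 0.0514), Irf4 (0.158) and Pigr (0.228) did not pass. Tnfsf13b did not pass with sex as a covariate (0.29, adjusted p = 0.0554), nor Pigr with 1 mean per genotype and a term for the set (0.14, 0.0732, limma).

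**Figure D1:**
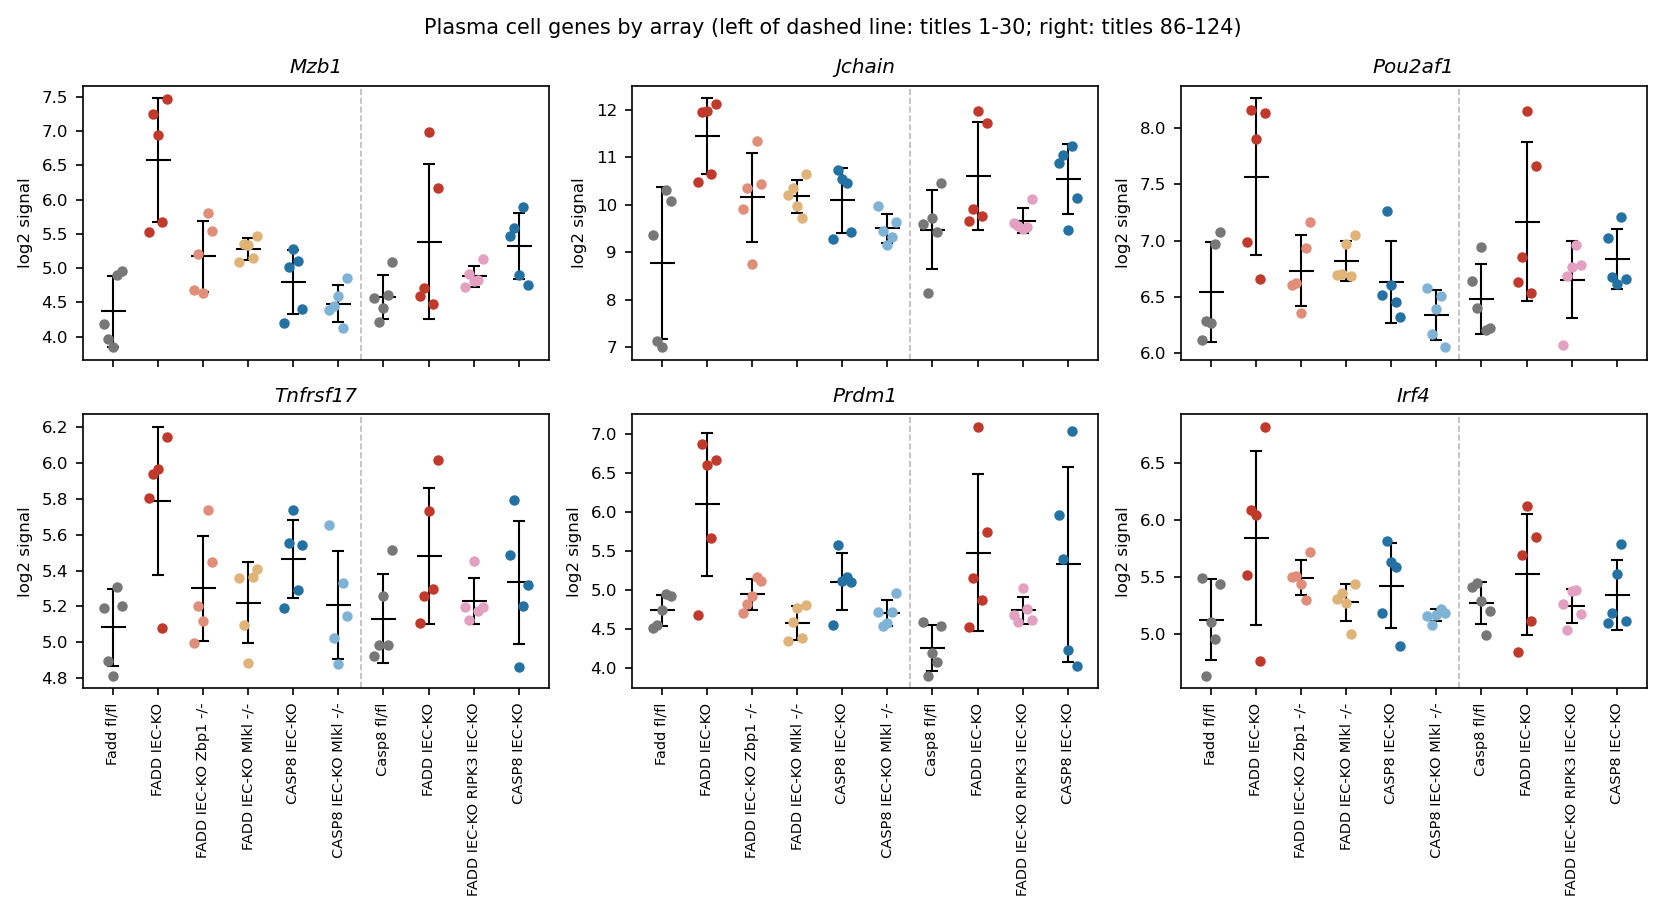
Log2 signal of Mzb1, Jchain, Pou2af1, Tnfrsf17, Prdm1 and Irf4 on every array, by genotype, with the mean and SD of each group of 5 as bars and a dashed line between the sets of arrays numbered 1 to 30 and 86 to 124. The FADD IEC-KO groups hold the highest Mzb1 and Jchain values, up to 7.46 and 12.12, and their mice spread more widely than those of most groups.

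Tnfsf13b encodes BAFF, the cytokine that keeps B cells alive and that myeloid and stromal cells make. It read 6.79, 6.74, 6.61, 6.76 and 6.69 in Fadd fl/fl mice and 6.95, 7.08, 7.22, 6.99 and 6.87 in FADD IEC-KO mice. The groups did not overlap, though the gap between mouse 26 and mouse 25 was small, and the difference was 0.30 ± 0.11 (SE) (adjusted p = 0.044, limma). The call ended when mouse 22, 23, 24, 27, 28, 29 or 30 was left out, with differences of 0.26 to 0.32 and adjusted p of 0.0528 to 0.138. The receptors of BAFF on B cells did not pass. Tnfrsf13b, TACI, differed by 0.29 (-0.01 to 0.59) and Tnfrsf13c, the BAFF receptor, by -0.01 (-0.60 to 0.58), with adjusted p of 0.179 and 0.988 (limma).

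Pigr, the epithelial polymeric immunoglobulin receptor, varied little. It read 12.41, 12.41, 12.38, 12.38 and 12.42 in Fadd fl/fl mice and 12.55, 12.37, 12.65, 12.59 and 12.66 in FADD IEC-KO mice. Mouse 22 lay just below the controls and the other 4 knockouts above them, and the difference was 0.16 ± 0.06 (SE) (adjusted p = 0.034, limma). The call ended without mouse 23, 24, 25, 27, 28 or 29, with differences of 0.14 to 0.17 and adjusted p of 0.0526 to 0.103.

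No gene of the B cell receptor complex passed in the same mice. Cd79a, a signalling chain of the receptor, read 5.92, 6.59, 6.62, 7.63 and 7.83 in the floxed mice and 6.59, 7.15, 6.87, 5.88 and 8.45 in the knockouts. The groups lay across each other, with mouse 25 highest and mice 24 and 26 lowest, and the difference was 0.07 (95% interval -0.92 to 1.06, adjusted p = 0.947, limma). Its partner Cd79b differed by 0.26 (-0.52 to 1.04). Among the kinases and adaptors behind the receptor, Blk differed by -0.08 (-0.54 to 0.39), Blnk by -0.24 (-0.50 to 0.03) and Bank1 by -0.47 (-1.36 to 0.42). Btk, which myeloid cells also use, had the largest positive difference of these, 0.56 (-0.02 to 1.13, adjusted p = 0.175, limma). Btk passed without mouse 21 (0.77, adjusted p = 0.049).

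Neither did any gene for a surface protein of mature B cells. Ms4a1, which encodes CD20, read 4.61, 5.62, 5.21, 5.37 and 5.78 in the floxed mice and 5.28, 5.04, 4.89, 4.49 and 6.45 in the knockouts. Only mouse 25 stood above the controls, and the difference was -0.09 (-0.81 to 0.63, adjusted p = 0.904, limma). The inhibitory receptor gene Cd22 differed by -0.02 (-0.73 to 0.69), the complement receptor gene Cr2 by -0.17 (-0.87 to 0.53) and Fcer2a, the low affinity IgE receptor gene, by -0.21 (-0.48 to 0.06). Cd37 and Cd72, which many leukocytes or B cells carry, differed by 0.29 and 0.27, Fcmr, the IgM receptor gene, by -0.25, Fcrla by -0.04 and Vpreb3, a partner of the surrogate light chain, by 0.27. The intervals are wide, and that of Ms4a1 holds changes of 0.5 log2 units in either direction.

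None of the regulators of B cell identity passed. Ebf1, a founder of the B cell programme that stromal and smooth muscle cells of the gut also express, read 8.02, 8.35, 8.42, 8.07 and 8.51 in the floxed mice and 8.19, 7.73, 6.85, 7.71 and 8.42 in the knockouts. Mice 22, 23 and 24 were below every control and mice 21 and 25 among them, and the difference was -0.49 (-0.90 to -0.09, adjusted p = 0.0797, limma). Ebf1 passed without mouse 21 (-0.60, adjusted p = 0.0365) or 25 (-0.65, 0.0207). The smooth muscle markers fell in the same mice by a median of 1.06, and their part in the Ebf1 values was not tested. Pax5, the keeper of B cell identity, differed by -0.14 (-0.75 to 0.47) and Spib, an ETS factor of B cells and M cells, by -0.13 (-0.66 to 0.40). The homing receptors Cxcr5, which leads B cells into follicles, and Ccr6, which leads them towards the follicle-associated epithelium, differed by -0.01 and -0.07. Across the 23 B cell genes other than Pigr the median was -0.04, with 8 on the positive and 15 on the negative side.

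The secretory genes that plasma cells switch on for antibody export moved with the plasma cell genes, although goblet and other secretory cells use them too. Of 20 measured, 16 rose and none fell in the first set, with a median of 0.51. Sdf2l1, a chaperone cofactor of the endoplasmic reticulum, rose by 0.72 ± 0.13 (adjusted p = 0.000195), Xbp1, the regulator of the secretory programme, by 0.52 ± 0.09 (0.000211), Fkbp11 by 0.69 ± 0.13 (0.00031) and Txndc11 by 0.74 ± 0.15 (0.000506, log2 ± SE, limma). Of 9 other plasma cell genes 2 rose, Eaf2 by 0.59 ± 0.16 and Lax1 by 0.80 ± 0.24 (adjusted p = 0.00715 and 0.0148, limma). None of 7 germinal centre genes passed; Gcsam differed by 0.37 and Ung by 0.31 (adjusted p = 0.12 and 0.0565, limma), and 2 of the 7 had p under 0.05 before adjustment.

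Of 21 other genes of B cells, 5 rose. The inhibitory Fc receptor gene Fcgr2b rose by 1.29 ± 0.22 (adjusted p = 0.000116, limma) and the antigen presentation regulator Ciita by 0.98 ± 0.22 (0.00128). Plcg2 rose by 0.72 ± 0.19 (0.00538), Syk by 0.38 ± 0.10 (0.00694) and Ly86 by 0.92 ± 0.29 (0.0211, limma). Macrophages or dendritic cells also express these genes, and the part of those cells in the rises was not tested. Of 19 ligands and signals to B lineage cells, 4 rose and 1 fell. Il6, a cytokine that supports plasma cells, rose by 1.59 ± 0.43 (adjusted p = 0.00732, limma) and Madcam1, the vascular address for gut lymphocytes, by 0.79 ± 0.22 (0.00802). Cd40lg rose by 0.43 ± 0.15 and Tgfb1, a driver of the switch to IgA, by 0.50 ± 0.18 (adjusted p = 0.0391 and 0.0459, limma). Ccl25, a chemokine of the small bowel epithelium, fell by 0.20 ± 0.07 (0.0476).

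Markers of other cells moved in these mice as well. All 9 monocyte and macrophage markers rose (median 0.81), led by Ly6c2 (1.86 ± 0.36, adjusted p = 0.000389, limma), and 4 of 7 T cell markers rose (median 0.68). All 6 smooth muscle markers fell (median -1.06; Myh11 -1.24 ± 0.23, adjusted p = 0.000314, limma), and of 8 epithelial markers 2 rose and 2 fell. The mean of the muscle markers was 11.70, 10.46, 10.27, 11.50 and 10.54 in mice 21 to 25 and 11.84 to 11.98 in the floxed mice, so the 3 knockouts with the highest Mzb1 had the lowest muscle signal. The monocyte and macrophage mean was 7.52, 8.90, 8.39, 7.71 and 7.89 in the same 5 knockouts and 6.91 to 7.61 in the controls, and the T cell mean was 5.71, 6.38, 6.45, 5.90 and 6.25 against 5.53 to 5.84. The part of these cells, or of a smaller share of muscle in the tissue, in the differences of the plasma cell genes was not tested.

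In the second set 7 of the 8 plasma cell genes had positive differences, most of which did not pass. Against Casp8 fl/fl mice, 2 of the 32 genes rose in FADD IEC-KO colon and none fell, beside 6.8% of all genes that rose, 4.25% that fell and 11% in all. Prdm1 read 4.59, 3.91, 4.19, 4.09 and 4.55 in Casp8 fl/fl mice 86, 91, 98, 105 and 119 and 4.53, 5.15, 7.09, 4.88 and 5.75 in FADD IEC-KO mice 89, 95, 117, 120 and 124. Mouse 117 was far above the rest and mouse 89 lay among the controls. The difference was 1.22 ± 0.37 (SE), or 2.32-fold (adjusted p = 0.0259, limma), and the call ended without mouse 117 (0.81, adjusted p = 0.16), 124 (1.15, 0.0592), 91 (1.13, 0.0651) or 105 (1.17, 0.0524). Neither call was made with only these 2 groups in the fit.

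Mzb1 read 4.57, 4.22, 4.42, 4.61 and 5.09 in the Casp8 fl/fl mice and 4.59, 4.71, 6.99, 4.49 and 6.16 in the FADD IEC-KO mice of the second set. Mice 117 and 124 were high, and mice 89, 95 and 120 lay within the control range. The difference was 0.80 (0.11 to 1.50, adjusted p = 0.123, limma). Jchain followed the same mice, with 9.60, 8.15, 9.72, 9.43 and 10.45 in the controls and 9.66, 9.90, 11.98, 9.76 and 11.72 in the knockouts. Again only mice 117 and 124 left the control range, and the difference was 1.13 (0.10 to 2.17, adjusted p = 0.147, limma). Pou2af1 differed by 0.68 (0.17 to 1.19, 0.0709), Tnfrsf17 by 0.35 (-0.00 to 0.70, 0.199) and Irf4 by 0.26 (-0.19 to 0.70, 0.495). With 1 mean per genotype over both sets and a term for the set, Mzb1 (1.23, adjusted p = 0.0137), Jchain (1.46, 0.0328) and Pou2af1 (0.83, 0.0132) passed as well (limma). Pou2af1 also passed with the dimmest 40% of genes removed (0.68, adjusted p = 0.0482) and without mouse 89 (0.82, 0.042), 120 (0.84, 0.033) or 98 (0.80, 0.0478).

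Tnfsf13b read 6.62, 6.17, 6.81, 6.26 and 6.60 in Casp8 fl/fl mice and 6.74, 6.95, 7.03, 6.84 and 6.87 in FADD IEC-KO mice. Mouse 98 was the one control that reached the knockout range, and the difference was 0.40 ± 0.11 (SE), or 1.32-fold (adjusted p = 0.0139, limma). The call ended without control mouse 91 (0.32, adjusted p = 0.0669) or 105 (0.34, 0.0535). The 8 plasma cell genes had a median difference of 0.52, the 23 B cell genes other than Pigr 0.07 and all genes -0.03. Cd79a differed by 0.69 (-0.30 to 1.68) and Ms4a1 by -0.08 (-0.80 to 0.64), with adjusted p of 0.394 and 0.91 (limma).

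Of the 20 secretory genes, 11 rose in this set and none fell (median 0.36), led by Hyou1 (0.74 ± 0.15, adjusted p = 0.001) and Txndc5 (0.48 ± 0.12, 0.00525, limma). Of 9 monocyte and macrophage markers 5 rose (median 0.70), 1 of 7 T cell markers rose and 2 of 6 smooth muscle markers fell. Muscle marker means were 11.82, 11.86, 10.03, 11.62 and 11.18 in the 5 knockouts and 11.66 to 11.93 in the controls, with the lowest values in mice 117 and 124, the mice with high Mzb1. Their part in the plasma cell values was not tested. The effect of epithelial Fadd loss was not shown to differ between the sets: the interaction for Mzb1 was 1.40 (0.41 to 2.38, adjusted p = 0.254) and for Jchain 1.53 (0.06 to 2.99, 0.437, limma), and none of the 32 genes passed, with 3 at p under 0.05 before adjustment and 0.123% of all genes called. The controls of the sets were floxed at different genes. Without mouse 117 the interaction for Mzb1 passed (1.80, adjusted p = 0.0415).

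**Figure D2:**
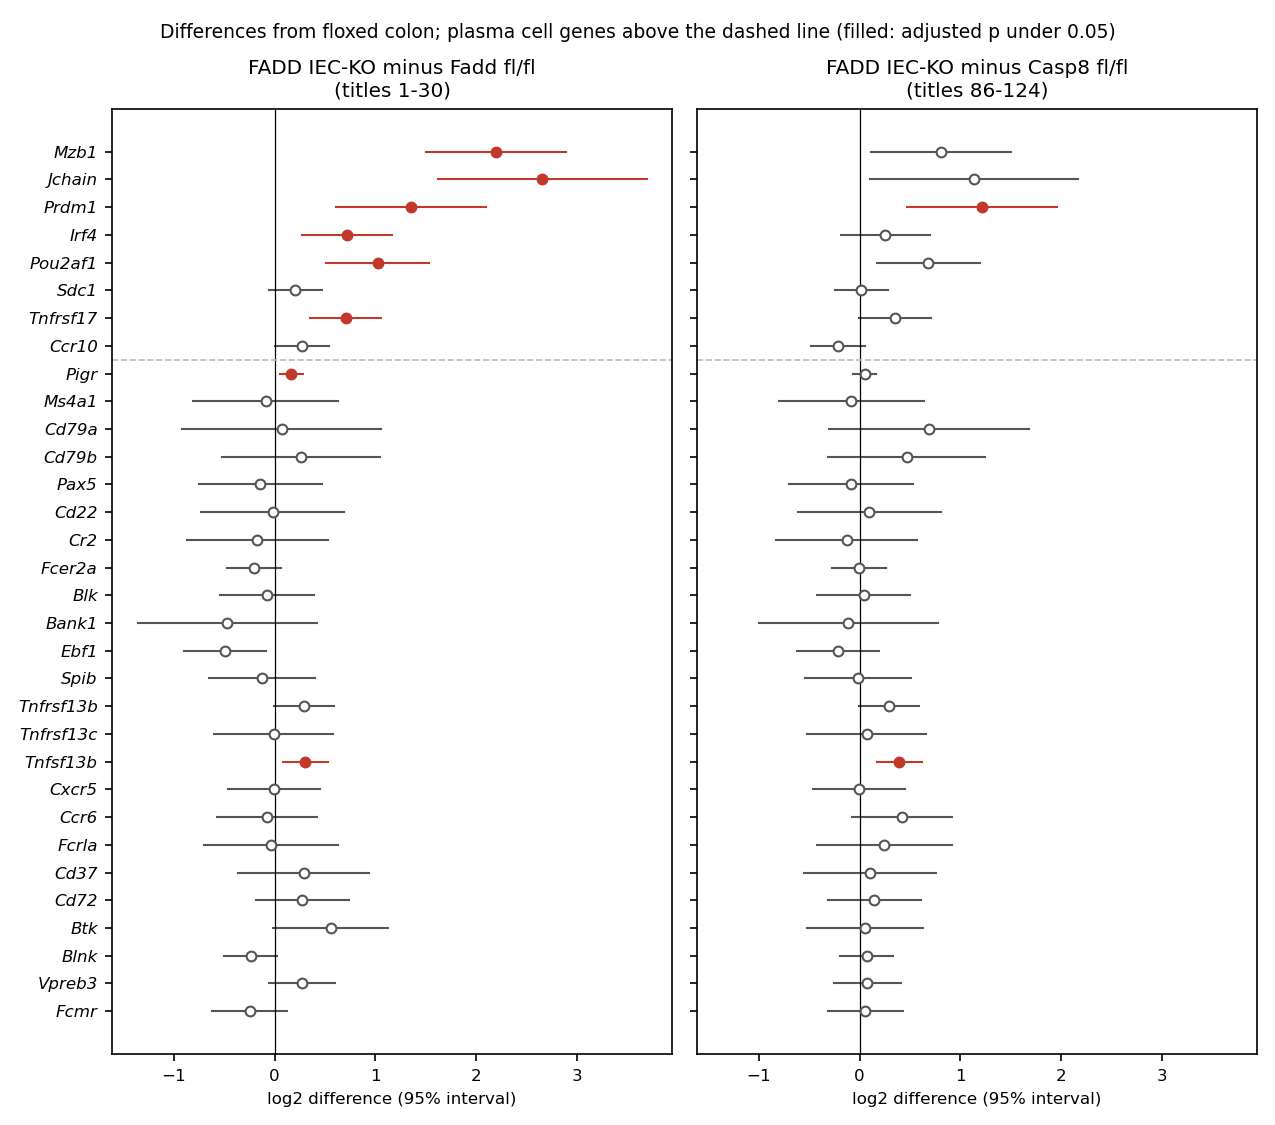
Log2 difference of each of the 32 genes between FADD IEC-KO colon and the floxed control of the first set (Fadd fl/fl) and of the second set (Casp8 fl/fl), with 95% intervals, filled where the adjusted p was under 0.05. Mzb1 and Jchain stand farthest to the right in the first set, at 2.20 and 2.66. The B cell genes lie on both sides of 0 in both sets, many with wide intervals, and some are as far from 0 as some plasma cell genes.

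In CASP8 IEC-KO colon 7 of the 8 plasma cell genes in the second set and 8 in the first had positive differences, none of which passed. In the second set no listed gene passed against Casp8 fl/fl mice, beside 2.46% of all genes that passed. Before adjustment 6 of 32 had p under 0.05 (limma), and no share of all genes at that threshold is given. Jchain read 10.87, 11.05, 9.46, 11.23 and 10.14 in CASP8 IEC-KO mice 87, 92, 100, 104 and 108. Mice 87, 92 and 104 were above every control given above and mice 100 and 108 among them, and the difference was 1.08 (0.04 to 2.11, adjusted p = 0.251, limma). Mzb1 in the same mice read 5.47, 5.59, 4.89, 5.90 and 4.75, which overlapped the controls only in mice 100 and 108, and differed by 0.74 (0.04 to 1.43, 0.24). Prdm1 read 5.96, 5.40, 4.23, 7.04 and 4.02, with mouse 104 near the highest value of any array and mouse 108 near the lowest, and differed by 1.07 (0.32 to 1.81, 0.103). Prdm1 passed without mouse 100 (1.34, adjusted p = 0.0446) or mouse 108 (1.40, 0.019), and Sdc1, at 0.36 (0.10 to 0.62, 0.112), passed without mouse 108 (0.44, 0.0416).

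In the first set, CASP8 IEC-KO mice were compared with the Fadd fl/fl controls that the FADD IEC-KO comparison also uses. No listed gene passed, beside 0.123% of all genes that passed, and 2 of 32 had p under 0.05 before adjustment. Jchain differed by 1.32 (0.28 to 2.35, adjusted p = 0.298), Tnfrsf17 by 0.38 (0.03 to 0.73, 0.384) and Mzb1 by 0.43 (-0.26 to 1.13, 0.649, limma). The plasma cell genes had medians of 0.36 in the second set and 0.33 in the first, and the B cell genes other than Pigr medians of -0.22 and -0.11. Cr2 had the most negative of the receptor values in the second set, -0.68 (-1.38 to 0.02, adjusted p = 0.29). None of the 20 secretory genes passed in the second set, where the median was 0.20 and 19 were positive, and 7 had p under 0.05 before adjustment. The Casp8 effect was not shown to differ between the sets, since the smallest adjusted p of an interaction among the listed genes was 0.589, for Ccr10 (limma), with 1 gene at p under 0.05 before adjustment and 0.00513% of all genes called.

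Set directly against FADD IEC-KO mice, with the difference taken within each set and averaged, CASP8 IEC-KO colon had lower values of 3 listed genes and higher values of none, beside 3% of all genes that were lower, 2.13% that were higher and 5.13% in all. Mzb1 was 1.89-fold lower (-0.92 ± 0.24 (SE), adjusted p = 0.0201), Pou2af1 1.55-fold lower (-0.63 ± 0.18 (SE), 0.0301) and Tnfsf13b 1.39-fold lower (-0.47 ± 0.08 (SE), 0.000178, limma). Prdm1 passed without mouse 104 (-0.78, adjusted p = 0.0306) or 21 (-0.75, 0.0496) and Irf4 without mouse 24 (-0.44, 0.0484). Jchain did not pass (-0.70, -1.43 to 0.03, 0.272). Tnfsf13b read 6.73, 6.48, 6.11, 6.97 and 6.36 in CASP8 IEC-KO mice 16 to 20 and 6.37, 6.59, 6.50, 6.48 and 6.24 in those of the second set. Mouse 19, at 6.97, was the one CASP8 IEC-KO mouse to reach the FADD IEC-KO values, and the Tnfsf13b call held with every single mouse left out. The Mzb1 call ended without mouse 108, 22, 117 or 124 (-0.85 to -0.72, adjusted p = 0.0501 to 0.0709), and that of Pou2af1 without any 1 of mice 16, 19, 20, 92, 100, 108, 22, 23, 25, 117 and 124 (-0.62 to -0.51, 0.0501 to 0.0986). Monocyte and macrophage markers moved with it, 8 of 9 being lower (median -0.62), as did 9 of the 20 secretory genes (median -0.27), while 4 of 6 muscle markers were higher (median 0.49), and their part in the difference was not tested.

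With added loss of Zbp1, 4 plasma cell genes fell in FADD IEC-KO colon. The 4, of 32 listed genes, were Mzb1, Prdm1, Pou2af1 and Sdc1, and none rose, beside 5.14% of all genes that fell, 5.61% that rose and 10.8% in all. Mzb1 read 4.67, 5.20, 4.64, 5.81 and 5.55 in FADD IEC-KO Zbp1 -/- mice 1 to 5, where mice 4 and 5 reached the lower end of the FADD IEC-KO values. It fell 2.63-fold (-1.40 ± 0.34 (SE), adjusted p = 0.00721, limma) and no single mouse left out ended the call. Prdm1 read 4.71, 4.82, 4.93, 5.18 and 5.12, a narrow span beside the 4.69 to 6.88 of the FADD IEC-KO mice, and fell 2.21-fold (-1.15 ± 0.37 (SE), 0.0369). Pou2af1 read 6.60, 6.62, 6.36, 6.93 and 7.17, which reached only mice 21 and 24 of the FADD IEC-KO group, and fell 1.78-fold (-0.83 ± 0.25 (SE), 0.0277). Sdc1 read 9.70, 10.08, 10.25, 9.30 and 9.65 in FADD IEC-KO mice and 9.66, 9.29, 9.30, 8.96 and 9.37 in the Zbp1 -/- mice, with mouse 24 among the Zbp1 -/- mice and mouse 1 among the FADD IEC-KO mice, and fell 1.39-fold (-0.48 ± 0.13 (SE), 0.0126). Unlike the others, Sdc1, which epithelium also makes, had not passed in FADD IEC-KO against Fadd fl/fl mice and did not follow Mzb1 (r = 0.09). Fadd fl/fl mice read 9.46 to 9.70 for Sdc1, and the Zbp1 -/- mice except mouse 1 lay below them.

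Jchain read 9.91, 10.35, 8.75, 11.33 and 10.44 in the same 5 Zbp1 -/- mice. Mice 1 and 3 lay within the floxed values, mouse 4 within the FADD IEC-KO values, and mice 2 and 5 between them. Its difference from FADD IEC-KO was -1.28 (-2.32 to -0.25, adjusted p = 0.0981, limma), and Tnfrsf17 differed by -0.49 (-0.84 to -0.13, 0.0634). Jchain passed without mouse 21 (adjusted p = 0.0481), Tnfrsf17 without mouse 24 (0.00904) or 4 (0.0307), and Irf4 without mouse 24 (0.0363, limma). Pigr read 12.41, 12.63, 12.59, 12.65 and 12.63, with mouse 1 at the floxed level and the others at that of the FADD IEC-KO mice, and differed by 0.02 (-0.09 to 0.13). None of the 4 calls was made with only these 2 groups in the fit or with a term for the set, and 3 rested on single mice. Prdm1 lost its call without mouse 1, 2, 3, 5, 22, 23 or 25 (-1.19 to -0.95, adjusted p = 0.0539 to 0.142), Pou2af1 without 1, 2, 3, 22, 23 or 25 (-0.80 to -0.68, 0.0583 to 0.119) and Sdc1 without 4, 22 or 23 (-0.41 to -0.37, 0.0513 to 0.0763).

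The secretory genes fell as well, 14 of 20 with none rising (median -0.39), led by Fkbp11 (-0.67 ± 0.13, adjusted p = 0.00126) and Txndc5 (-0.57 ± 0.12, 0.00181, limma). Eaf2 and Lax1 fell by 0.69 and 0.71. Among the signals, Ccl28, the ligand of Ccr10 made by colon epithelium, rose by 0.40 ± 0.11 (adjusted p = 0.0163), and Ccl21a rose by 0.77 ± 0.20 (0.0108, limma). All 6 muscle markers rose (median 0.89) and 2 of 9 monocyte and macrophage markers fell, and their part in the plasma cell differences was not tested. Set against Fadd fl/fl mice, which the FADD IEC-KO comparison shares as controls, no listed gene of the Zbp1 -/- mice passed, beside 1.07% of all genes called. Mzb1 differed from the floxed mice by 0.80 (0.11 to 1.50, adjusted p = 0.288) and Jchain by 1.38 (0.35 to 2.41, 0.192, limma), and 5 of the 32 had p under 0.05 before adjustment.

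Added loss of Mlkl gave 4 lower genes in FADD IEC-KO colon and none higher, beside 2.93% of all genes that fell, 2.91% that rose and 5.85% in all. Mzb1 read 5.09, 5.35, 5.34, 5.15 and 5.46 in FADD IEC-KO Mlkl -/- mice 11 to 15, close together and below all 5 FADD IEC-KO mice, and fell 2.45-fold (-1.29 ± 0.34 (SE), adjusted p = 0.0181, limma). Prdm1 read 4.35, 4.59, 4.78, 4.39 and 4.81, overlapping only mouse 21 of the FADD IEC-KO group, and fell 2.86-fold (-1.52 ± 0.37 (SE), 0.0105). Tnfrsf17 read 5.36, 5.10, 4.88, 5.36 and 5.41, overlapping only mouse 24, and fell 1.48-fold (-0.57 ± 0.18 (SE), 0.0436). Tnfsf13b read 6.63, 6.55, 6.81, 6.50 and 6.58, below every FADD IEC-KO mouse, and fell 1.33-fold (-0.41 ± 0.11 (SE), 0.0185). Mzb1 and Tnfsf13b were the 2 listed genes wholly below the FADD IEC-KO mice, beside 2.28% of all genes. Jchain read 10.21, 10.35, 9.97, 9.73 and 10.64, overlapping only mouse 21 of the FADD IEC-KO group, and its difference of -1.26 (-2.29 to -0.22, 0.137) did not pass. Pigr at -0.17 (-0.29 to -0.06, 0.055) and Pou2af1 at -0.74 (-1.26 to -0.23, 0.0686) did not pass. Pigr passed under quantile normalization (adjusted p = 0.0337), with the dimmest 40% of genes removed (0.0291), under trend and robust moderation (0.0235) and without mouse 21 (0.0491) or 22 (0.0296). Pou2af1 passed with the dimmest genes removed (0.0483) and without mouse 21 (0.0215) or 24 (0.0131), and Ccr10 under quantile normalization (0.0303) and without mouse 24 (0.0246) or 15 (0.0373). Irf4 passed without mouse 24 (0.0079, all limma).

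Each of these calls rested on single mice of the FADD IEC-KO group, and none was made with only these 2 groups in the fit. Mzb1 lost its call without mouse 22, 23 or 25 (-1.20 to -1.07, adjusted p = 0.0668 to 0.0894), Prdm1 without mouse 22 (-1.32, 0.0588) and Tnfsf13b without 14, 22 or 23 (-0.39 to -0.36, 0.0557 to 0.0786). Tnfrsf17 lost its call without 11, 12, 13, 14, 22, 23 or 25 (-0.60 to -0.48, 0.0529 to 0.131). The B cell genes other than Pigr had a median of 0.28 in this comparison, 19 of 23 being positive, beside -0.66 for the plasma cell genes, 0.01 over all genes and no B cell gene called higher. Ebf1 had the smallest p of those, at 0.59 (0.18 to 0.99, adjusted p = 0.0709, limma). Of the 20 secretory genes 6 fell (median -0.34), Il6 fell by 1.62 ± 0.43 (adjusted p = 0.0178, limma), 4 of 9 monocyte and macrophage markers fell and all 6 muscle markers rose (median 0.90), and their part in the differences was not tested.

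Against the floxed mice, again the shared controls, no listed gene of the FADD IEC-KO Mlkl -/- mice passed, 2 had p under 0.05 before adjustment and 0.159% of all genes were called. Mzb1 differed by 0.91 (0.22 to 1.60, adjusted p = 0.377, limma) and was above every floxed mouse in all 5. It was the only 1 of the 32 listed genes whose groups did not overlap. That is near the 2.92% of all genes without overlap, so no result about Mzb1 is drawn from it. Jchain differed by 1.40 (0.37 to 2.44, 0.357, limma). In CASP8 IEC-KO colon, added Mlkl loss moved no listed gene past the threshold (0.421% of all genes called, 2 of 32 at p under 0.05 before adjustment). Mzb1 read 4.39, 4.45, 4.59, 4.13 and 4.86 in CASP8 IEC-KO Mlkl -/- mice 6 to 10 and 4.21, 5.02, 5.28, 5.10 and 4.40 in CASP8 IEC-KO mice 16 to 20, with overlapping groups and a difference of -0.32 (-1.01 to 0.38). The effect of Mlkl loss was not shown to differ between the backgrounds. The interaction was 0.97 for Mzb1 (-0.01 to 1.96, adjusted p = 0.46), 1.12 for Prdm1 (0.06 to 2.17, 0.424) and 0.44 for Tnfsf13b (0.13 to 0.76, 0.277, limma). None of the listed genes passed, beside 0.0154% of all genes called. Before adjustment 6 of 32 had p under 0.05, with no share of all genes at that threshold.

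The CASP8 IEC-KO Mlkl -/- mice also showed no call against Fadd fl/fl (1 of 32 at p under 0.05 before adjustment, 0.0462% of all genes called). Blnk, the adaptor that links the B cell receptor to its downstream enzymes, was 8.81 to 9.21 there and 9.26 to 9.64 in the floxed mice. The groups did not overlap, and the difference was -0.47 (adjusted p = 0.187, limma). Pigr lay wholly above the floxed mice by 0.04, and these were the 2 listed genes without overlap, beside 2.82% of all genes.

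Epithelial co-deletion of Ripk3 was read in the second set. No listed gene passed against FADD IEC-KO mice, beside 0.754% of all genes that passed, and 2 of 32 had p under 0.05 before adjustment. Tnfsf13b read 6.66, 6.44, 6.50, 6.50 and 6.33 in mice 88, 93, 112, 113 and 123 of the FADD IEC-KO RIPK3 IEC-KO group, below every FADD IEC-KO mouse, with a difference of -0.40 (-0.62 to -0.18, adjusted p = 0.0598, limma). It was the only 1 of the 32 listed genes without overlap. That is near the 3.28% of all genes, so no result about Tnfsf13b is drawn from the lack of overlap. Mzb1 read 4.72, 4.92, 4.82, 4.82 and 5.13 and Jchain 9.62, 9.56, 9.49, 9.53 and 10.13 in these mice. Mzb1 lay above FADD IEC-KO mice 89, 95 and 120 and below mice 117 and 124, Jchain lay just below those 3 mice except in mouse 123, and the differences were -0.51 (-1.20 to 0.19, 0.514) and -0.94 (-1.97 to 0.09, 0.392). All 20 secretory genes had negative differences (median -0.22) with none passing and 8 at p under 0.05 before adjustment. Against Casp8 fl/fl mice none of the 32 passed, 0 had p under 0.05 before adjustment and 0.0769% of all genes were called, and Mzb1 and Jchain differed by 0.30 (-0.40 to 0.99) and 0.19 (-0.84 to 1.23).

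**Figure D3:**
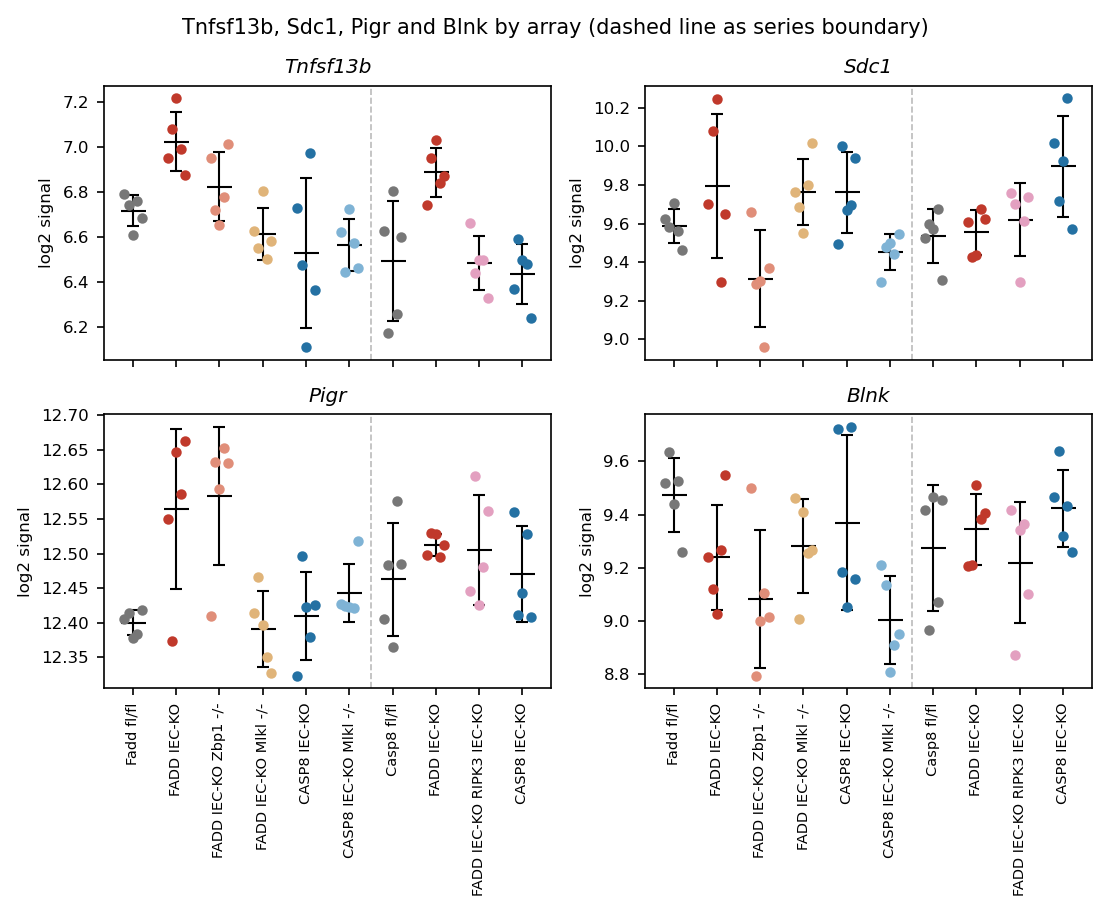
Log2 signal of Tnfsf13b, Sdc1, Pigr and Blnk on every array, by genotype, with the mean and SD of each group of 5 as bars and a dashed line between the sets. Tnfsf13b is highest in the FADD IEC-KO groups, at 6.87 to 7.22 in the first set and 6.74 to 7.03 in the second, and Pigr varies least.

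In order of group means, Mzb1 was highest in FADD IEC-KO mice of the first set (6.57 ± 0.90, SD, n = 5), followed by FADD IEC-KO mice of the second set (5.39 ± 1.13), CASP8 IEC-KO mice of the second set (5.32 ± 0.48), FADD IEC-KO Mlkl -/- (5.28 ± 0.15) and FADD IEC-KO Zbp1 -/- mice (5.17 ± 0.52). The FADD IEC-KO RIPK3 IEC-KO mice (4.88 ± 0.16), CASP8 IEC-KO mice of the first set (4.80 ± 0.47), Casp8 fl/fl (4.58 ± 0.32), CASP8 IEC-KO Mlkl -/- (4.48 ± 0.27) and Fadd fl/fl mice (4.37 ± 0.52) were lower. Neighbours after the first differed by less than the SD of either group, except that the step from FADD IEC-KO Zbp1 -/- down to FADD IEC-KO RIPK3 IEC-KO mice exceeded the SD of the latter. The order crosses the sets and was not tested.

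Pigr and Tnfsf13b, which other cells make, are left aside here, leaving 22 genes of B cells. Among the 22, Ebf1, Btk and Cd37 are also expressed by other cells, and Blnk did not follow Ms4a1 (r = -0.05). Ms4a1, Cd79b, Pax5, Cd22, Cr2, Spib, Tnfrsf13b, Cxcr5, Ccr6, Fcrla, Btk and Vpreb3 lay among the dimmest 40% of genes. So did Mzb1, Prdm1, Irf4 and Tnfrsf17, which rose in FADD IEC-KO colon of the first set. The part of low signal in the calls or their absence was not tested. The 22 genes gave no call in any of the 13 comparisons of groups in the fit over all arrays. Of those 286 tests with limma, 17 had p under 0.05 before adjustment, from 0 to 5 in a comparison. No share of all genes at that threshold is given. The smallest adjusted p was 0.0709, for Ebf1 after Mlkl loss in FADD IEC-KO colon. Some of these genes passed under alternatives. Ebf1 passed after Mlkl loss with the dimmest 40% of genes removed (0.59, adjusted p = 0.0498) or without mouse 21 (0.69, 0.0265) or 25 (0.75, 0.0279), and after Zbp1 loss without mouse 21 (0.60, 0.0466) or 25 (0.66, 0.0343). Without mice 25 and 117 together, an alternative chosen after seeing the data, it passed after both losses (0.75 and 0.66, adjusted p = 0.0198 and 0.0298) and against Fadd fl/fl (-0.65, 0.0182). Tnfrsf13b passed after Zbp1 loss without mouse 21 (-0.47, 0.0322), 24 (-0.48, 0.0321) or 5 (-0.48, 0.0471). Blnk passed in FADD IEC-KO Zbp1 -/- against Fadd fl/fl mice without mouse 1 (-0.50, 0.0496), and the calls of Ebf1 and Btk against Fadd fl/fl are given above (limma).

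**Figure D4:**
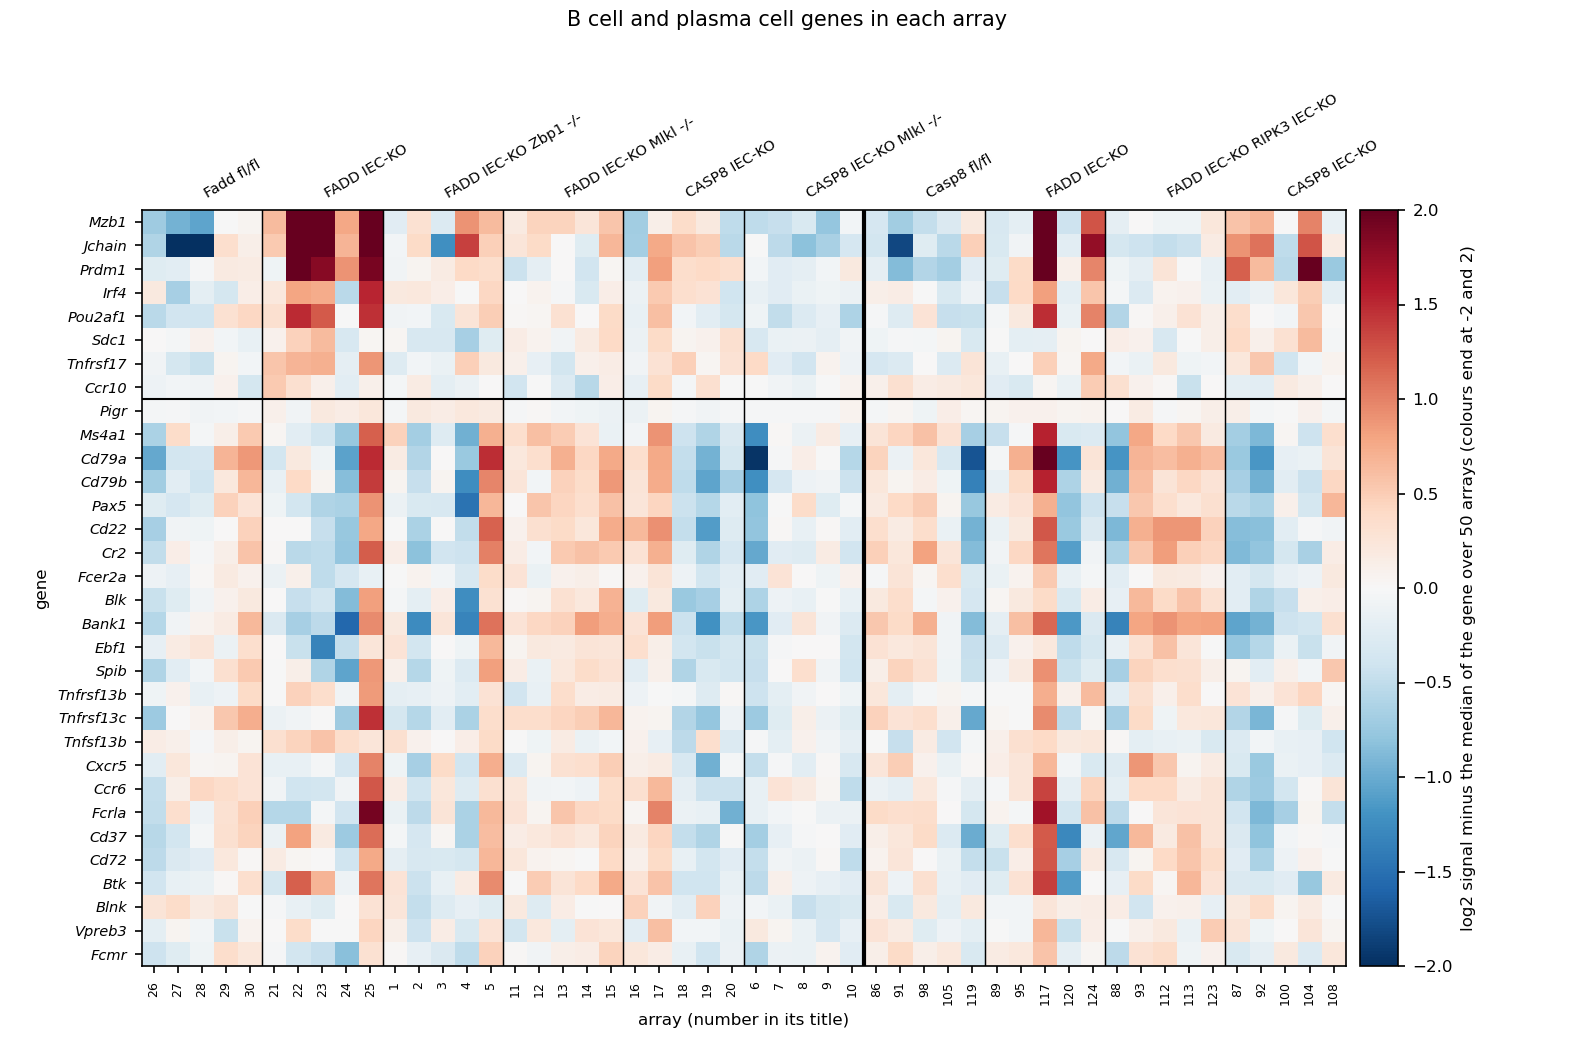
Log2 signal of the 32 genes on the 50 arrays, each gene shown as its distance from its own median, with colours ending at -2 and 2, and arrays grouped by genotype and set. The plasma cell genes other than Sdc1 and Ccr10 are high in FADD IEC-KO mice 22, 23, 25, 117 and 124. Mzb1, Jchain and Prdm1 are also above their medians in CASP8 IEC-KO mice 87, 92 and 104. Many B cell genes are high or low together on single arrays of several groups.

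The B lineage genes varied more between mice of 1 group than most genes did. The median SD within groups was 0.39 for the plasma cell genes and 0.43 for the B cell genes other than Pigr, beside 0.19 over all genes. Jchain (0.86) and Cd79a (0.82) were more variable than 99.8% of genes, Bank1 (0.74) than 99.7% and Mzb1 (0.58) than 99.2%. Pigr was at the other end, with an SD of 0.071 that only 0.251% of genes were below. Mouse 117 had the highest value of all 50 arrays in 13 of the 24 B cell genes and mouse 25 in 8, and mouse 25 was highest in 4 of the 8 plasma cell genes.

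Most plasma cell genes followed Mzb1 from mouse to mouse, and most B cell genes followed Ms4a1. For this the distance of each array from its group mean was used, so that differences between group means play no part. First, 11 pairs of genes were examined over 50 arrays. Differences in spread between groups remain. Mzb1 spread most widely in the 2 FADD IEC-KO groups, as given above, so those mice weigh most in its r. Mzb1 and Jchain correlated at a Pearson r of 0.83 and a Spearman rho of 0.87 (permutation p of 1e-05 for both, the smallest that 100000 resamples can give, adjusted p = 2.2e-05 for r). The r was 0.83 without the 2 arrays farthest from the median of Mzb1, and 0.80 and 0.90 within the first and second set. Mzb1 and Pou2af1 had r = 0.77 and rho = 0.71 (adjusted permutation p for r = 3.1e-05, 0.71 without the 2 arrays), and Mzb1 and Tnfrsf17 had r = 0.61 and rho = 0.61 (0.00033, 0.65 without the 2 arrays). Within the sets these were 0.78 and 0.77 for Pou2af1, and 0.58 and 0.65 for Tnfrsf17. All 61 pairs of a listed gene with Mzb1 or with Ms4a1 were tested in the same way, as a family of their own chosen after the values were seen. Mzb1 passed with 5 of 7 plasma cell genes (adjusted permutation p under 0.05), among them Prdm1 (r = 0.79, rho = 0.82) and Irf4 (r = 0.64, rho = 0.53). It did not pass with Sdc1 (r = 0.09, rho = 0.05, adjusted permutation p for r = 0.719) or Ccr10 (r = 0.24, rho = 0.26, 0.353). The points of a pair share the array, its tissue piece and its normalization. The share of all genes that follow Mzb1 or Ms4a1 in this way was not computed. Whether the counts given here and below are particular to B lineage genes therefore cannot be told.

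Among the B cell genes, Ms4a1 and Cr2 had r = 0.86 and rho = 0.82 (0.83 without the 2 arrays farthest out, 0.87 and 0.85 within the sets), and Ms4a1 and Cd22 had r = 0.86 and rho = 0.81 (0.83, and 0.82 and 0.90). Ms4a1 and Spib had r = 0.83 and rho = 0.77, Ms4a1 and Fcer2a r = 0.69 and rho = 0.63, and Cr2 and Cxcl13, the follicle chemokine of lymphoid stroma, r = 0.76 and rho = 0.71. The adjusted permutation p for r was 2.2e-05 for Ms4a1 with Cr2, Cd22 and Spib and for Cr2 with Cxcl13, and 3.14e-05 for Ms4a1 with Fcer2a. Over all pairs Ms4a1 passed with 20 of 23 B cell genes and not with Pigr (r = 0.09), Tnfsf13b (r = -0.04) or Blnk (r = -0.05, adjusted permutation p for r = 0.817).

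Between plasma cell and B cell genes the pairs were uneven. Mzb1 and Ms4a1 had r = 0.21 and rho = 0.05 (adjusted permutation p for r = 0.286), falling to r = 0.06 without the 2 arrays farthest out, with 0.17 and 0.27 within the sets. Mzb1 passed with 4 of 24 B cell genes. Its r with Tnfrsf13b was 0.63 (rho = 0.55, adjusted permutation p for r = 0.000839, 0.56 without the 2 arrays, 0.54 and 0.74 within the sets). Its r with Btk was 0.53, with Fcrla 0.50 and with Cd72 0.46 (adjusted permutation p = 0.0302, 0.0222 and 0.0493), but these were 0.35, 0.37 and 0.35 without the 2 arrays, and rho did not pass (adjusted permutation p = 0.123, 0.114 and 0.196), so they rest in part on those arrays. Ms4a1 passed with 2 plasma cell genes, Pou2af1 (r = 0.50, rho = 0.38, 0.36 without the 2 arrays) and Irf4 (r = 0.42, rho = 0.26, 0.23 without the 2 arrays), with adjusted permutation p for r of 0.00518 and 0.0342 and for rho of 0.0325 and 0.19. Mzb1 and Pigr had r = 0.25 (adjusted permutation p = 0.138) and rho = 0.32 (0.0245). Tnfsf13b and the macrophage gene Csf1r had r = 0.31 and rho = 0.39 (adjusted permutation p for r = 0.0372), with 0.20 and 0.47 within the sets.

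**Figure D5:**
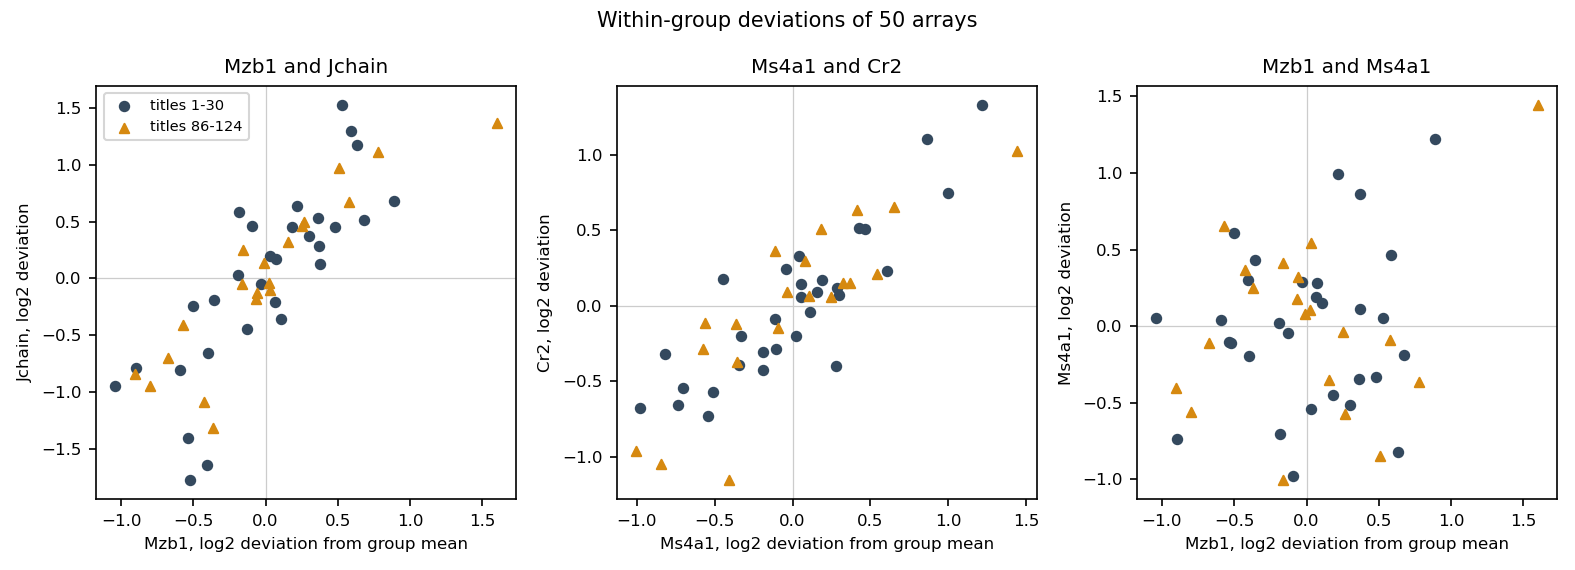
Distance of each of the 50 arrays from its group mean (log2) for the pairs Mzb1 and Jchain, Ms4a1 and Cr2, and Mzb1 and Ms4a1. The first pairs lie along a line (r = 0.83 and 0.86), while Mzb1 and Ms4a1 do not (r = 0.21). Other pairs of a plasma cell and a B cell gene differ, such as Mzb1 and Tnfrsf13b (r = 0.63, not plotted).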

How the data were processed

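Log2 signals per probe set, as deposited by the authors, were used for 50 arrays of colon RNA (100 ng per array). Per the submitters' processing notes, 2 tools were used, Transcriptome Analysis Console and Affymetrix Expression Console. Their versions and the normalization were not given in the sources used here. Of 22142 probe sets, 19527 carried 1 gene symbol in GEO's platform annotation and 2615 none. After 33 dimmer probe sets of repeated symbols were dropped, 19494 genes remained.

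Limma 3.58.1 in R 4.3.3 was fitted over all 50 arrays with 1 mean for each of the 10 groups of 5 (40 residual degrees of freedom), and p-values were adjusted over all genes by Benjamini-Hochberg, with a threshold of 0.05. Comparisons that share a control group are not independent. Every listed gene was reported in some comparison, with up to 4 genes of smallest adjusted p from each other list. The other lists were, like the members, chosen with earlier results of these data known. Alternatives were the compared groups alone, a filter on the dimmest 40%, a term for the set, a sex covariate read from the arrays, quantile normalization, trend and robust moderation, and mice left out. The pairs with Mzb1 or Ms4a1 were added after the values were seen. The scripts were tested on simulated data. Tnfsf13 and the immunoglobulin genes are not analysed here.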

Additional observations from a re-analysis of the deposited data

Results flagged for a closer look

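In each group of 5 arrays the gap between the highest or lowest array and its nearest neighbour was divided by the range of the group and set against Dixon's critical value of 0.71. Of 320 gene-by-group sets of values, 24 were past it, and chance alone gives about 1 in 20. The values are log2 signals.

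Among FADD IEC-KO RIPK3 IEC-KO mice, mouse 88 was far below the other 4 in 7 B cell genes. Its values were 5.77 for Cd79a (others 7.57 to 7.67), 4.97 for Cd79b (6.19 to 6.54), 4.83 for Cd22 (6.19 to 6.60) and 5.00 for Cr2 (6.04 to 6.46). It read 4.96 for Bank1 (7.08 to 7.20), 4.87 for Spib (5.65 to 5.97) and 5.94 for Cd37 (7.15 to 7.63). In the same group mouse 123 was high in Jchain, at 10.13 (9.49 to 9.62), and mouse 112 in Tnfrsf17, at 5.45 (5.13 to 5.20).

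Casp8 fl/fl mouse 119 was low in Ms4a1, at 4.58 (5.51 to 5.84), in Cd79b, at 4.57 (5.85 to 6.16), and in Tnfrsf13c, at 6.25 (7.37 to 7.73). CASP8 IEC-KO Mlkl -/- mouse 6 was low in Ms4a1, at 4.00 (5.09 to 5.41), and in Blk, at 5.39 (5.86 to 6.00), and mouse 10 of that group was high in Pigr, at 12.52 (12.42 to 12.43).

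FADD IEC-KO mouse 25 was high in Cxcr5, at 5.73 (4.41 to 4.71), in Ccr6, at 6.53 (4.89 to 5.22), and in Fcrla, at 7.00 (4.51 to 5.04). FADD IEC-KO mouse 117 was high in Ms4a1, at 6.79 (4.78 to 5.23). FADD IEC-KO Zbp1 -/- mouse 5 was high in Tnfrsf13b, at 5.87 (5.39 to 5.50), and in Cd72, at 7.08 (6.07 to 6.24), and mouse 1 was low in Pigr, at 12.41 (12.59 to 12.65). CASP8 IEC-KO mouse 92 was low in Cxcr5, at 4.00 (4.44 to 4.61), and CASP8 IEC-KO mouse 17 was high in Vpreb3, at 5.57 (4.76 to 4.92).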

How the results depend on the processing

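The counts of listed genes called were 8 for FADD IEC-KO against Fadd fl/fl, 2 against Casp8 fl/fl, 3 for CASP8 IEC-KO against FADD IEC-KO, and 4 each for added Zbp1 and Mlkl loss. With only the arrays of the groups compared they were 5, 0, 1, 0 and 0. The shares of all genes called, given above, belong to the fit over all arrays, and none is given for the alternatives. Whether a change in count is particular to the listed genes therefore cannot be told. With the dimmest 40% of genes removed, which takes out 17 of the 32 genes, Mzb1 among them, the first count was 4 and the Zbp1 count 2. That filter also gave 1 call for added Ripk3 loss (Tnfsf13b) and 1 for FADD IEC-KO Zbp1 -/- against Fadd fl/fl (Pigr), and trend and robust moderation gave 1 for the latter. Genotype with a term for the set gave 5 calls for FADD IEC-KO against Casp8 fl/fl, 0 for Zbp1, 2 for Mlkl and 1 for Ripk3 loss. Without FADD IEC-KO mice 22 and 23 the counts were 2 against Fadd fl/fl, 1 against CASP8 IEC-KO, 0 for Zbp1 and 0 for Mlkl. Without mice 25 and 117, an alternative chosen after seeing the data, there was 1 call against Casp8 fl/fl and 1 against CASP8 IEC-KO. The cause of these moves was not tested, apart from the genes taken out by the filter. Leaving out 1 mouse at a time gave 5 to 10 calls against Fadd fl/fl, 0 to 3 against Casp8 fl/fl, 0 to 2 for CASP8 IEC-KO against Casp8 fl/fl, 1 to 4 against CASP8 IEC-KO, 1 to 7 for Zbp1 and 1 to 7 for Mlkl. It gave 0 to 2 for FADD IEC-KO Zbp1 -/- against Fadd fl/fl and 0 to 1 for the interaction of Fadd loss with the set. Mzb1 and Jchain against Fadd fl/fl passed under every alternative in which they were tested, at 1.78 to 2.46 and 2.22 to 3.04, as did Tnfsf13b in CASP8 IEC-KO against FADD IEC-KO, at -0.53 to -0.42. No result reversed. No paired analysis was possible because the numbers in the array titles are unique to each array. The number of arrays limits the precision, and no detection calls were used.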
